A study of Mus musculus with 5 samples.

Results

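The regions described here were 796 promoters of low CpG content that carried a narrow, weaker H3K4me3 peak in wild-type (WT) DP thymocytes and no listed H3K4me3 peak in Cxxc1-deficient DP thymocytes. DP thymocytes are the immature T cells that express both CD4 and CD8. The deposited 200-bp windows of the WT list were joined into peaks across at most 2 missing windows. A peak was included when it was autosomal, narrower than 3000 bp, weaker than 3.5 RPM (reads scaled to library size, summed over its windows) and within 1 kb of the transcription start site (TSS) of a protein-coding gene. In addition, at least 1 TSS it reached had no 500-bp stretch within 1 kb in which GC reached 55% and CpGs reached 0.65 of the number predicted from base composition (the CpG ratio). Such a TSS is called CpG-poor here. Finally, the peak shared no base with a Cxxc1-deficient peak. The WT list held 14237 peaks, 6509 of them at autosomal promoters, and 3735 further peaks passed the same rule at CpG-rich promoters. Of all 6509 promoter peaks, 88.8% shared no base with a Cxxc1-deficient peak. The 796 regions were selected on WT strength, WT width, CpG content and absence from the Cxxc1-deficient list, so these properties are given as descriptions only.

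The study compared Cxxc1 fl/fl mice, called WT, with Cxxc1 fl/fl hCD2-Cre mice, called Cxxc1-deficient, on a 129 and C57BL/6 background. Mice were 3 to 4 weeks old unless the study stated otherwise. The floxed allele loses exons 4 and 5 wherever Cre is made, and the hCD2-Cre transgene is active from early thymocytes and is not restricted to the DP stage. The titles call the samples KO, whereas their genotype label reads Cxxc1+/-, and the titles were followed. Each of the 5 samples was 1 library, so the genotypes could not be compared with any replicate error, and p-values are absent throughout. Intervals are 95% intervals over peaks, genes or tags and cover counting error only. The size of 1 tag, 0.106 RPM, placed each H3K4me3 library near 9.44 M mapped tags. Places outside the called peaks carry no value, so a promoter without a Cxxc1-deficient peak has an unknown and not a zero signal.

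H3K4me3 is the trimethylated form of lysine 4 of histone H3 and marks the nucleosomes around active gene starts. It is deposited in part by the Setd1 complexes, of which Cxxc1 is a subunit, and Cxxc1 carries a zinc finger that recognises unmethylated CpG. Most promoters of broadly used genes lie in CpG islands, whereas many genes switched on in a single lineage, including antigen-receptor and signalling genes of T cells, start in DNA with few CpGs.

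The difference in CpG content is visible in the bases themselves. The 150 bases before the TSS are shown 5′ to 3′ from the mm9 assembly, with each CG in capitals, for 6 of the 796 regions and then for 2 genes whose peaks passed the same rule at a CpG-rich promoter.
Tnf (chr17:35338953-35339102, minus strand): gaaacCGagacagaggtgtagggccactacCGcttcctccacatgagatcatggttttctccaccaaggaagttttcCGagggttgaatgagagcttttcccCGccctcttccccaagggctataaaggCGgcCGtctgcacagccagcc
Psmb10 (chr8:108462293-108462442, minus strand): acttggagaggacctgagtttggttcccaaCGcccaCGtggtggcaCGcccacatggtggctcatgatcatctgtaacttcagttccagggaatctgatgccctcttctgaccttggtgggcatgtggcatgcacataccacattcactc
Vav1 (chr17:57418373-57418522, plus strand): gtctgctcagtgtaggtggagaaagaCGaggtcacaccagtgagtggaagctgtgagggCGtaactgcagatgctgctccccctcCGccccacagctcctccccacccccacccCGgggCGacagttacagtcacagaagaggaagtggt
Cd8b1 (chr6:71272680-71272829, plus strand): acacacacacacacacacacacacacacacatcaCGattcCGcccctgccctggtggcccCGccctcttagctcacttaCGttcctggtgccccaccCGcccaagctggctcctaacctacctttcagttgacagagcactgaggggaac
S1pr4 (chr10:80962453-80962602, minus strand): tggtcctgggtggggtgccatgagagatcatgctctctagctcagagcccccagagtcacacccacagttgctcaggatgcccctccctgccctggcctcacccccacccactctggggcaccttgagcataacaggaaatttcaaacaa
Notch1 (chr2:26372184-26372333, minus strand): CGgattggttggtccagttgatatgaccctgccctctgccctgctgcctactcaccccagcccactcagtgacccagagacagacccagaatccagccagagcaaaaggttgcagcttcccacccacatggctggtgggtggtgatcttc
Csk (chr9:57493461-57493610, minus strand): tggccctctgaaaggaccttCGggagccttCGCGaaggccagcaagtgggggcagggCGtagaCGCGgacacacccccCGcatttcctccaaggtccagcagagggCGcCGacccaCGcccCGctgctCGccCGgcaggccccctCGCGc
Stk10 (chr11:32433155-32433304, plus strand): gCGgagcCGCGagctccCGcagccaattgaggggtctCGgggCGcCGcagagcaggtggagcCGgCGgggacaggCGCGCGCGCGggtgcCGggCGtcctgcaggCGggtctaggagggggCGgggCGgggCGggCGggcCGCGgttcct

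The 6 CpG-poor sequences held from 0 CpGs (S1pr4) to 6 (Tnf), against 15 for Csk and 23 for Stk10. The Tnf sequence also held TATAAA starting 29 bases before its TSS. Over all 796 regions, the median was 3 CpGs in these 150 bases (quartiles 2 and 5), and 69 regions (8.67%) had none. At the 3735 CpG-rich promoters the median was 14 (quartiles 10 and 18), and 9 (0.241%) had none. The peaks of the 8 genes shown ranged in WT strength from 2.8 RPM (28 tags) at Notch1 to 3.4 RPM (34 tags) at Tnf, with 3.3 RPM at both Csk and Stk10. Strong peaks under the limit of 3.5 RPM were picked for display, so their similar strength follows from the choice. The peaks of Vav1, Cd8b1 and S1pr4 spanned the start shown, whereas those of Tnf, Psmb10 and Notch1 lay within 1 kb of it on 1 side.

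The peaks were weak by construction and rested on few tags. Their median strength was 2.1 RPM (interval 2.1 to 2.2), with quartiles at 1.8 and 2.6 and a range from 1.2 to 3.4 RPM, which corresponds to 12 to 34 tags. Their median width was 1600 bp (range 400 to 2800), and the median RPM per listed window was 0.36, compared with 0.4 at the CpG-rich promoters. Together they covered 1.24 Mb and held 1770 RPM, or 9.55% of the RPM in autosomal WT promoter peaks. At the edges of the rule, 11 regions lay at 3.4 RPM and 9 CpG-poor peaks lay just outside at 3.5 RPM, and 7 regions were 2800 bp wide while 8 peaks were excluded at 3000 bp. The highest CpG ratio in any stretch of sufficient GC was between 0.60 and 0.65 for 109 regions, and 118 peaks just outside had a ratio between 0.65 and 0.70. A further 125 regions had no stretch with 55% GC at all.

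The strongest 11 regions all summed to 3.4 RPM, from 33 or 34 tags, so counting error does not separate them (exact Poisson interval for 34 tags, 2.49 to 5.03 RPM). They lay at Lrrc27, Ephx1, Rreb1, Cyp4f13, Mapre2, Clec11a, Ifi30, Otos, Ggt5, Tnf and Cd151, and neither RPM nor tags rank them. Ephx1 encodes the microsomal epoxide hydrolase, Cyp4f13 a cytochrome P450 and Ggt5 a gamma-glutamyltransferase. Rreb1 encodes a zinc finger transcription factor, Ifi30 a lysosomal thiol reductase that acts in antigen processing, Otos a protein best known from the inner ear and Cd151 a tetraspanin. Their peaks were not alike in shape. The Lrrc27 peak held 7 listed windows in 2000 bp with a mean of 0.486 RPM per window, whereas the Otos peak held 11 in 2800 bp with a mean of 0.309. The highest single window among the 11 was 1.0 RPM at Rreb1.

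Among the Cxxc1-deficient peaks, 1145 lay at autosomal promoters, the weakest at 1.1 RPM and the median at 2.1 RPM. Of the 796 regions, 61 (7.66%) were no stronger in WT than 1.5 RPM, the 5th percentile of the Cxxc1-deficient promoter peaks, and 399 (50.1%) were no stronger than their median, compared with 42.5% of the CpG-rich set.

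**Figure D1:**
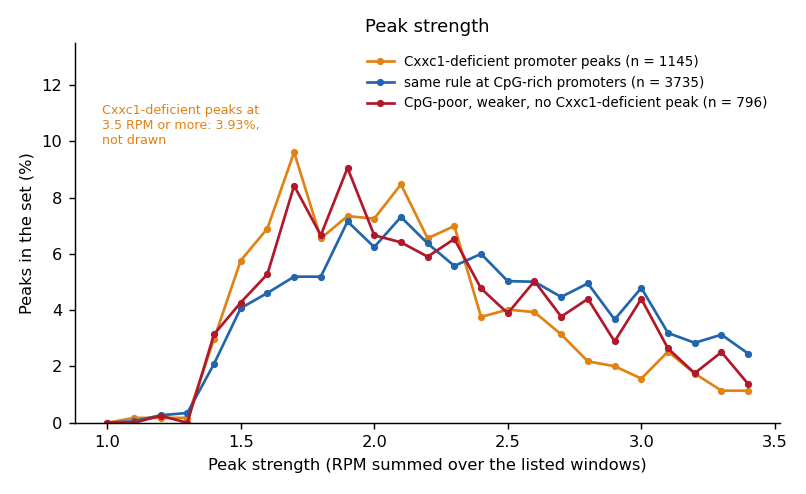
Peak strength in RPM (horizontal axis, steps of 0.1) against the share of each set in percent (vertical axis) for the 796 CpG-poor regions, the 3735 peaks that pass the same rule at CpG-rich promoters and the 1145 Cxxc1-deficient promoter peaks. The whole range of the CpG-poor regions, 1.2 to 3.4 RPM, is also covered by the Cxxc1-deficient peaks, whose median is the same 2.1 RPM. Of the Cxxc1-deficient peaks, 3.93% lie at 3.5 RPM or more and are not drawn.

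Before the requirement of no Cxxc1-deficient peak was applied, 860 CpG-poor peaks were narrow and weak, and 64 of them (7.44%, Wilson interval 5.87 to 9.39) shared a base with a Cxxc1-deficient peak. The corresponding share at CpG-rich promoters was 400 of 4135 (9.67%, 8.81 to 10.6). By WT strength, the CpG-poor share was 4.7% (2.64 to 8.22) from 1.2 to 1.8 RPM, 5.38% from 1.9 to 2.1 RPM, 7.96% from 2.2 to 2.6 RPM and 11.7% (8.04 to 16.7) from 2.7 to 3.4 RPM. The same 4 classes gave 9.06%, 7.98%, 11.1% and 9.82% at CpG-rich promoters. Among wider or stronger peaks, 20.2% (15.8 to 25.5) of the CpG-poor and 17.0% (15 to 19.2) of the CpG-rich ones shared a base. These shares come from the contrast that chose the regions and were not tested. A Cxxc1-deficient peak lay within 5 kb of 40 regions (5.03%), and the median distance to the nearest one was 82.9 kb.

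The position of H3K4me3 relative to the TSS was not used by the rule beyond the 1-kb limit. Distances of CpG-poor peaks were measured to the nearest CpG-poor TSS reached, even where a CpG-rich TSS was nearer. In the CpG-rich set, where every TSS reached was CpG-rich, the nearest one was used. The measures thus differ for regions that reach both kinds of TSS. The peaks of the CpG-poor regions lay on the start site less often than those of the CpG-rich set, as did the 64 similar CpG-poor peaks that shared a base with a Cxxc1-deficient peak. The midpoint lay within 500 bp of the TSS in 333 regions (41.8%, 38.5 to 45.3), against 81.4% (80.2 to 82.7) of the CpG-rich set, and it lay more than 1 kb away in 29.3% (26.2 to 32.5), against 4.9% (4.25 to 5.64). The peak itself spanned the TSS in 60.6% (57.1 to 63.9) against 89.9% (88.9 to 90.8). The midpoint was downstream, inside the gene, in 54.4% (50.9 to 57.8) against 65.2% (63.7 to 66.8). In the 64 shared CpG-poor peaks, the midpoint lay within 500 bp in 40.6% (29.5 to 52.9) and more than 1 kb away in 31.2% (21.2 to 43.4), and the peak spanned the TSS in 64.1% (51.8 to 74.7), with intervals that contain the values of the 796 regions. The middle 50% of midpoints ranged from -599 to 622 bp, compared with -68.5 to 325 bp (negative values are upstream).

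Part of this spread came from regions that also reached a CpG-rich TSS, because their distance was still measured to the CpG-poor one. In 682 regions every TSS reached was CpG-poor, and in 114 the peak reached a CpG-rich TSS as well. In the 682, the midpoint lay within 500 bp of the TSS in 47.8% (44.1 to 51.6) and downstream in 58.8% (55.1 to 62.4). In the 114, those shares were 6.14% (3.01 to 12.1) and 28.1% (20.6 to 36.9), the midpoint was more than 1 kb away in 61.4%, and 88.6% of the peaks themselves contained a CpG-rich stretch. For these 114 the CpG-poor name thus describes a TSS at the side of the peak and not the DNA under it. Of the 682 peaks, 4.25% contained such a stretch.

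**Figure D2:**
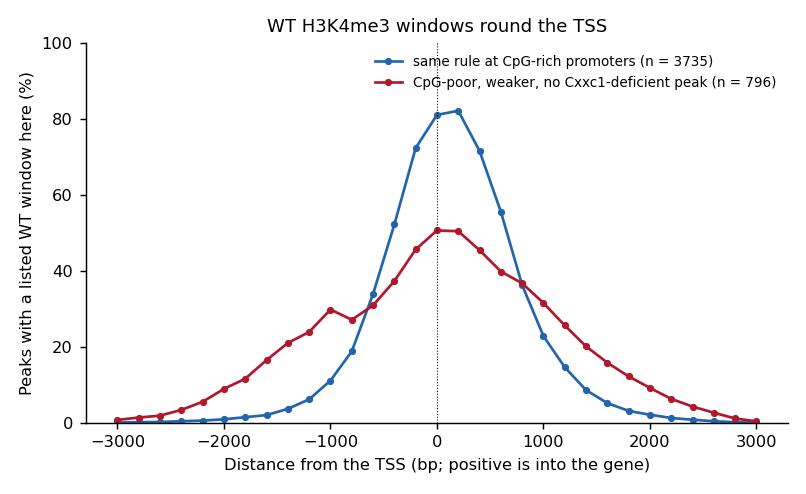
Share of peaks (vertical axis, percent) that have a listed WT H3K4me3 window at each distance from the TSS (horizontal axis, bp, positive into the gene), in steps of 200 bp. The CpG-poor regions peak at 50.6% at the TSS with broad shoulders (29.8% at -1000 bp), whereas the CpG-rich set reaches 81.0% at the TSS and 11.1% at -1000 bp.

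The CpG-poor regions were not a uniform sample of CpG-poor TSSs. Within 1 kb either side of the TSS, the regions held a median of 37 CpGs (quartiles 28 and 48) with an CpG ratio of 0.272. The 18254 CpG-poor TSSs without any WT peak held 22 (quartiles 13 and 32) with a ratio of 0.21, and the CpG-rich set held 100 (quartiles 79 and 127) with a ratio of 0.662. The median GC content of the 300 bp around the TSS was 55% in the regions, 47.7% at CpG-poor TSSs without a peak and 64.7% in the CpG-rich set.

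**Figure D3:**
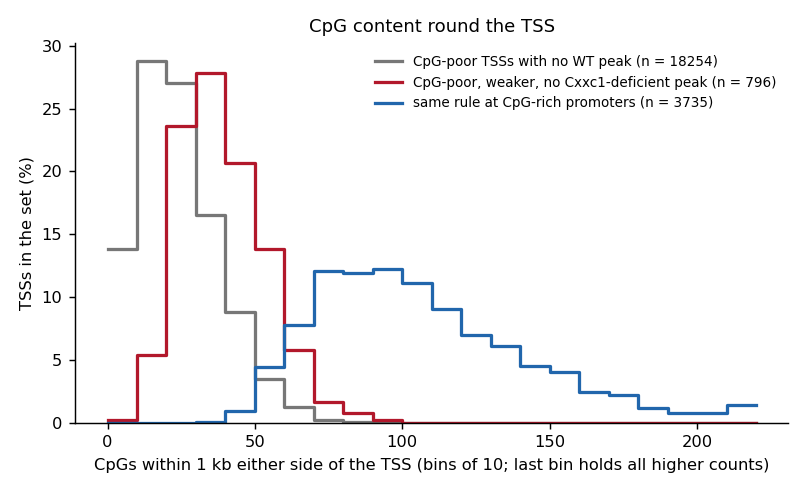
Number of CpGs within 1 kb either side of the TSS (horizontal axis, bins of 10) against the share of TSSs in each set (vertical axis, percent). The 796 CpG-poor regions, with a median of 37, lie between the 18254 CpG-poor TSSs without a WT peak (median 22) and the 3735 CpG-rich promoters (median 100).

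When the 20004 CpG-poor TSSs were divided into 5 groups of equal size by CpG number, the share within 1 kb of any WT peak was 0.35% (0.209 to 0.587) in the lowest group (0 to 12 CpGs), 2.05% in the second, 6.6% in the third, 12% in the fourth and 22.7% (21.4 to 24) in the highest (37 to 124 CpGs). The share within 1 kb of one of the 796 regions followed the same order, from 0.3% to 16.0% (14.9 to 17.1). Leaving out the olfactory and vomeronasal receptor genes gave 0.414% and 16.1%. TSSs of the same gene can share a peak, so they are not independent. Within the 796 regions, WT strength barely followed CpG number (Spearman correlation across regions, 0.04), while it followed width (0.74), of which it is a sum. The rule limits both strength and CpG content, and such limits can lower a correlation, so the value does not describe CpG-poor promoters in general. In the CpG-rich set, where strength had the same limit, the correlation with CpG number was 0.23. These are descriptions across regions of 1 library.

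**Figure D4:**
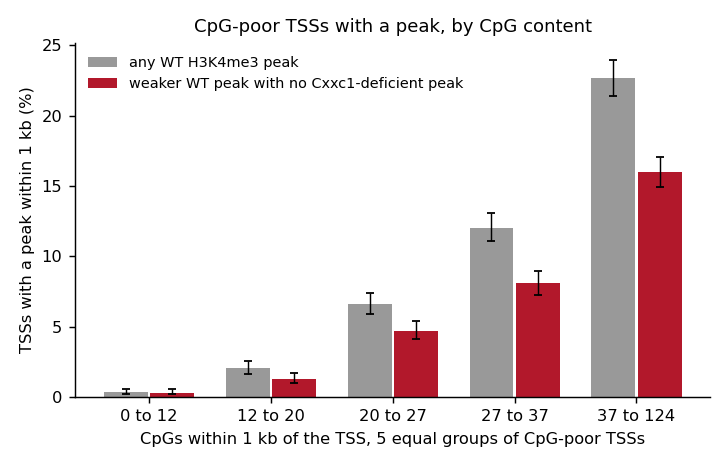
Share of CpG-poor TSSs (vertical axis, percent, with 95% Wilson intervals as error bars) that lie within 1 kb of any WT H3K4me3 peak (grey) or of one of the 796 regions (red), in 5 groups of equal size by CpG number within 1 kb of the TSS (horizontal axis). From the lowest to the highest group, the shares go from 0.35% to 22.7% and from 0.3% to 16.0%.

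The label CpG-poor depended on the limits chosen. A looser definition took a 200-bp stretch at 50% GC and a ratio of 0.6. By it, the nearest CpG-poor TSS of 436 of the 796 regions (54.8%) would count as CpG-rich. The rule needs only 1 CpG-poor TSS among those reached, and it gave 380 regions with the looser limits. A CpG-rich stretch by the main definition lay within 5 kb of the TSS in 247 regions (31.0%, 27.9 to 34.3), and under the peak in 16.3% (13.9 to 19.1), against 94.2% under the peaks of the CpG-rich set.

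Short sequence words in the promoters, counted in the 300 bp from 250 bases before to 50 bases after the TSS on both strands, set the regions between CpG-poor TSSs without a peak and CpG-rich promoters for several words. GGGCGG, the core of the GC box, was present in 29.3% of the regions (26.2 to 32.5), in 12.1% of CpG-poor TSSs without a WT peak, in 75.3% of the CpG-rich set and in 44.5% of all 43969 autosomal TSSs. CCGGAA, an ETS word with a CpG, was present in 11.2% (9.18 to 13.6), 5.77%, 29.6% and 17.9%. TGACGTCA was present in 0.251% of the regions, 0.707% of CpG-poor TSSs without a peak, 3.48% of the CpG-rich set and 2.14% of all TSSs, so the regions were not between for this word. All 3 words contain a CpG and so partly repeat the rule.

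Words without a CpG were ordered differently, and not all in the same way. AGGAAG, which shares the GGAA core of ETS sites with CCGGAA, was present in 44.7% of the regions (41.3 to 48.2), 38.5% of CpG-poor TSSs without a peak, 29.3% of the CpG-rich set and 33.8% of all TSSs. CACCTG, an E-box word and 1 of the forms of CANNTG, was present in 29.3% (26.2 to 32.5), 22.8%, 17.3% and 20.7%. CANNTG in any form was present in 78.3%, 80.1%, 58.4% and 69.0%, and TGTGGT, the core of RUNX sites, in 18.6% (16.0 to 21.4), 20.6%, 9.53% and 14.9%. CCAAT was present in 32.7% (29.5 to 36) of the regions and in 35.3% of all TSSs. GC content differed between these sets as given above, and its part in the shares was not tested. A word is a description of letters and not a binding site.

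TATAAA between 45 and 15 bases before the TSS on the sense strand, where a TATA box lies, was rare in every set. It was present in 18 regions (2.26%, 1.44 to 3.55), including Tnf, against 3.03% (2.8 to 3.29) of CpG-poor TSSs without a WT peak, 0.75% (0.519 to 1.08) of the CpG-rich set and 1.77% of all TSSs. Of the 18, 16 belonged to the 468 regions of genes with CpG-poor TSSs alone (3.42%, 2.12 to 5.48).

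The 796 regions lay at 787 genes, 3.68% of the 21410 autosomal protein-coding genes. A single gene was reached by 767 regions and a pair of genes by 29, and 33 genes had at least 2 regions. For 468 regions (58.8%, 55.3 to 62.2) the gene had CpG-poor TSSs alone. For the other 328 (41.2%, 37.8 to 44.7) the gene also had a CpG-rich TSS, and the region lay at another of its starts. Those 328 regions belonged to 309 genes. At 96 of these genes (31.1%) the region itself reached the CpG-rich TSS, and 131 (42.4%, 37.0 to 48.0) had a separate WT peak at a CpG-rich TSS. Of those 131 genes, 22 (16.8%, 11.4 to 24.1) had a Cxxc1-deficient peak at a CpG-rich TSS. For comparison, of all 3350 genes with both kinds of TSS, 1824 had a WT promoter peak and 353 a Cxxc1-deficient one, at a TSS of either kind.

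Genes with CpG-poor TSSs alone rarely carried listed H3K4me3. Of 9038 such genes, 7.2% (6.69 to 7.75) had a WT promoter peak and 5.27% (4.82 to 5.75) had one of the 796 regions. Of 9022 genes with CpG-rich TSSs alone, 49.6% had a WT promoter peak, so the WT list itself holds about as many such genes with as without a peak.

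T lineage and leukocyte genes were read from 8 lists with 232 autosomal genes. Of these, 27 (11.6%, 8.12 to 16.4) had a region, against 3.68% of all genes, and 48 (20.7%) had any WT peak at a CpG-poor TSS, against 5.08%. Of the 48, 12 had a peak at a CpG-poor TSS that shared a base with a Cxxc1-deficient peak and no region, among them Cd3e, Cd6 and Cd8a, and 9 had only a wider or stronger peak without a Cxxc1-deficient one, among them Cd5, Cd247 and Lat. Genes with a region were thus 56.2% of the T lineage and leukocyte genes that had such a peak. Over all gene symbols the corresponding counts were 785 of 1081 with a region (72.6%), 105 with a peak shared with the Cxxc1-deficient list and 191 with a wider or stronger peak, so the lists' larger share of genes with a region goes with a larger share of genes with any WT peak at a CpG-poor TSS. On 9 lists for other cell types, 4 of 112 genes (3.57%) had any WT peak at a CpG-poor TSS, and 1 (0.893%, 0.158 to 4.88) had a region. The gene with a region was Cd79b, a chain of the B cell receptor complex, at 2.7 RPM, and the midpoint of its peak lay 2042 bp downstream of the TSS. The other 3, Apoa1, Klf1 and Tnnt3, had only a wider or stronger peak without a Cxxc1-deficient one. No gene on the myeloid, NK cell, erythroid, thymic epithelium, dendritic cell, liver, muscle or neuron lists had a region. The lists are short and leave out other genes of these cell types. Regions lay, for example, at the unlisted muscle genes Mylpf (3.1 RPM), Atp2a1 (2.7 RPM), Tnni1 (2.3 RPM) and Tnni2 (2.2 RPM).

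The cell type label was checked against its own markers. Of the 9 DP markers that are annotated as protein-coding, Cd8b1 had a region, and Cd8a (3.5 RPM), Cd3e (3.2 RPM) and Thy1 (4.2 RPM) had other WT promoter peaks. The remaining 5, Cd4, Rag1, Rag2, Dntt and Cd2, had no listed WT promoter peak, although DP thymocytes are known to express them. The WT list thus misses start sites of genes that define the cells.

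Among the 22 receptor and coreceptor genes, Cd8b1 and Cd27 had a region (9.09%, 2.53 to 27.8), an interval that contains the 3.68% of all genes. The Cd8b1 peak, at the gene for the beta chain of the CD8 coreceptor, held 30 tags (3.0 RPM, Poisson interval 2.14 to 4.54) over 1600 bp, chr6:71271801-71273400, and spanned the TSS with its midpoint at -230 bp. It also lay within 1 kb of a CpG-poor TSS of Smyd1, so it cannot be assigned to Cd8b1 alone. The Cd27 peak, at a costimulatory receptor of the TNF receptor family, held 17 tags (1.7 RPM, 1.05 to 2.88) over 1000 bp. The intervals of the Cd8b1 and Cd27 peaks overlapped.

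Proximal T cell receptor (TCR) signalling had 6 of 33 genes with a region (18.2%, 8.61 to 34.4). These included both activators and inhibitors of the pathway. Vav1, a guanine nucleotide exchange factor of TCR signalling, had 33 tags (3.3 RPM, 2.41 to 4.91) with the midpoint at -22 bp. Zap70, the kinase recruited to phosphorylated TCR chains, and Ubash3a, a negative regulator of TCR signalling, each had 28 tags (2.8 RPM). Dgkz, a diacylglycerol kinase that limits the signal, had 27 tags (2.7 RPM).

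Lck, the kinase that phosphorylates the TCR chains, had 2 regions at different starts. The peak at chr4:129250001-129251600 held 26 tags (2.6 RPM) and the peak at chr4:129235001-129236200 held 19 tags (1.9 RPM), and each was centred within 84 bp of a CpG-poor TSS. Sla, an adaptor that lowers TCR levels, also had 2, of 18 and 17 tags. The Sla starts were the poorest in CpG among the 27 genes, with 14 and 10 CpGs within 1 kb. Pik3cd, the leukocyte catalytic subunit of PI3 kinase, had 2 as well, of 30 and 21 tags.

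At some of these genes the start sites differed in what the Cxxc1-deficient list held. Zap70 had a second WT peak of 4.1 RPM over another CpG-poor TSS, chr1:36817201-36820600, which overlapped 2.3 RPM of Cxxc1-deficient peak, while its region at chr1:36834201-36836800 had none. Dgkz had a WT peak of 2.9 RPM at a CpG-rich TSS that overlapped 2.2 RPM of Cxxc1-deficient peak. Notch1, the receptor that directs the T lineage, had a WT peak of 7.0 RPM at a CpG-rich TSS that overlapped 1.9 RPM of Cxxc1-deficient peak, and its region of 2.8 RPM had its midpoint at -1918 bp from a separate CpG-poor TSS. Stat5b, in contrast, had neither its region of 1.9 RPM nor its CpG-rich peak of 2.9 RPM in the Cxxc1-deficient list.

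Of 42 transcription factor genes, 21 had a CpG-poor TSS and 4 (9.52%, 3.77 to 22.1) had a region, against 3.68% of all genes. These were Notch1 at 2.8 RPM, Tcf3 at 2.2 RPM, Stat5b at 1.9 RPM and Tox2 at 1.4 RPM. All 4 also had a CpG-rich TSS with a WT peak of its own. Tcf3, which encodes the E proteins E12 and E47, had 3 WT promoter peaks, of 2.2, 3.6 and 2.3 RPM, and none shared a base with a Cxxc1-deficient peak. The 3.6 RPM peak missed the rule only by its strength. Tox2, an HMG-box factor, rested on 14 tags, the fewest among the 27 genes (interval 0.811 to 2.49 RPM).

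Among cytokine, receptor and migration genes, 4 of 36 were found (11.1%, 4.41 to 25.3), against 3.68% of all genes. Tnf and Lta, neighbouring genes for a pair of related cytokines, shared 1 peak of 34 tags, chr17:35339201-35341600. Its midpoint lay at -1448 bp from the Tnf TSS and at 1896 bp from the Lta TSS, and it spanned neither. S1pr4, a sphingosine 1-phosphate receptor of lymphocytes, had 29 tags (2.9 RPM) and Il2rb, the beta chain of the IL-2 and IL-15 receptors, 17 (1.7 RPM). For recombination genes, 1 of 9 (11.1%, 1.99 to 43.5) was found, Dclre1c (Artemis, the nuclease that opens V(D)J hairpins) with 21 tags. For antigen presentation, 1 of 20 (5.0%, 0.888 to 23.6) was found, Psmb10, a subunit of the immunoproteasome, with 33 tags. Only 10 of those 20 genes had a CpG-poor TSS. None of 20 survival genes had a region (upper Wilson limit 16.1%), and only 9 of them had a CpG-poor TSS. The share of all genes, 3.68%, lies inside the intervals of these 3 lists.

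Genes used across leukocytes gave 9 of 51 (17.6%, 9.57 to 30.3), against 3.68% of all genes. Of the 51, 46 had a CpG-poor TSS, and 19.6% of those 46 had a region. The same share over all gene symbols with a CpG-poor TSS was 6.37%. Aif1, a calcium-binding protein usually linked to macrophages, was the strongest with 33 tags (3.3 RPM) and its midpoint 64 bp from the TSS. Cd37, a tetraspanin, had 31 tags with its midpoint 10 bp from the TSS, and Pik3cd had 30. Itgal, the alpha chain of the integrin LFA-1, and Ly6e, a membrane-anchored surface protein, each had 24. Apobec3, a cytidine deaminase that restricts retroviruses, had 23. Rac2, a haematopoietic small GTPase, had 20, Dock2, an exchange factor for Rac, had 18, and Lsp1, an actin-binding protein, had 16. The Itgal peak did not span its TSS (midpoint at 1476 bp), and a Cxxc1-deficient peak lay 200 bp from it, so its place in the set rests on the no-shared-base criterion.

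**Figure D5:**
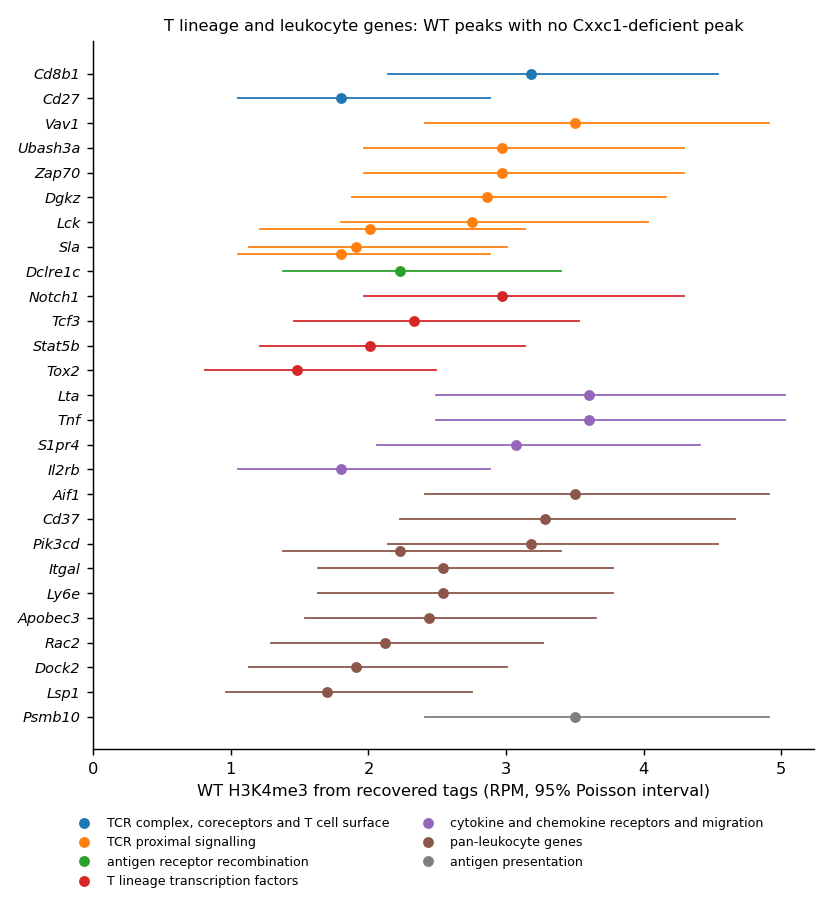
WT H3K4me3 at the 27 T lineage and leukocyte genes with a CpG-poor region (vertical axis), as RPM computed from recovered tags at 0.106 RPM each (horizontal axis) with 95% exact Poisson intervals, coloured by gene list; Tnf and Lta share 1 peak. The intervals of neighbouring genes overlap throughout, so most of the order from Tox2 (14 tags) to Tnf and Lta (34 tags) is within counting error. Values sit slightly above the deposited sums because the deposited windows are rounded to 1 decimal.

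Gene families with a shared symbol start differed in how many members had a region. Olfactory receptors, which neurons of the nose express, gave 1 of 1106 (0.0904%), Olfr1358 with 22 tags. Vomeronasal receptors gave 0 of 326 (upper limit 1.16%), keratins 0 of 100 (3.7%) and serpins 0 of 59 (6.11%). Histone genes gave 0 of 67, of which only 2 have a CpG-poor TSS. Among larger families, Zfp genes gave 16 of 358 (4.47%, 2.77 to 7.14), solute carriers 15 of 341 (4.4%, 2.68 to 7.13) and Tmem genes 13 of 208 (6.25%, 3.69 to 10.4), against 3.68% of all genes, which lies inside the first pair of intervals. Predicted Gm genes gave 20 of 1845 (1.08%, 0.703 to 1.67). Interferon regulatory and interferon-induced genes gave 4 of 75 (Ifi30, Irf9, Irf8 and Irf5). That share, 5.33% (2.09 to 12.9), has an interval that contains the 3.68% of all genes. Symbols starting as ribosomal protein genes do gave 1 of 144, Rps6ka1, which is a kinase and not a ribosomal protein.

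Ly6 genes, which encode small membrane-anchored surface proteins, gave 4 of 16 (25%, 10.2 to 49.5), against 3.68% of all genes. Of the 16, 14 had a CpG-poor TSS. Ly6e lies on chromosome 15, while Ly6g6d (22 tags), Ly6g6e (21) and Ly6g5b (17) lie close together on chromosome 17. That stretch belonged to the bin of 1 Mb with the second highest number of regions, chr17:35000001-36000000, with 12 regions among 68 genes, including Aif1, Tnf and Gpank1. The highest was chr10:80000001-81000000, with 13 regions among 59 genes, including S1pr4 and Dot1l, the H3K79 methyltransferase. By chromosome, the number of regions per 100 genes ranged from 1.62 on chromosome 13 and 1.85 on chromosome 12 to 5.44 on chromosome 11 and 5.52 on chromosome 15.

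The Cxxc1 list, which per the study's methods holds sites in WT cells although its file names no genotype, shared a base with 12 of the 796 regions (1.51%, 0.864 to 2.62). The share was 63 of 3735 (1.69%, 1.32 to 2.15) in the CpG-rich set, 1.94% of all 6509 promoter peaks, and 1.78% (1.49 to 2.13) of 6521 peaks away from promoters that were as narrow, as weak and also without a Cxxc1-deficient peak. The interval of the CpG-poor share contains all 3 of these values. At greater distances, a Cxxc1 peak lay within 5 kb of 6.03% of the regions (4.58 to 7.9) and of 4.98% of the CpG-rich set (4.33 to 5.72), and within 10 kb of 9.8% (7.92 to 12.1) and 7.5% (6.7 to 8.39).

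Among the 12 were Fam53b, where the Cxxc1 peak held 3.5 RPM, 5730559C18Rik (2.6 RPM) and Cd27 (2.4 RPM). The Cd27 region was the only 1 of the 27 T lineage and leukocyte genes' regions to share a base with a Cxxc1 peak, and its 1000 bp lay entirely within the Cxxc1 peak of 1400 bp. Sap25, a protein of the Sin3 corepressor complex, and Stard9, a kinesin-like protein, each had 2.3 RPM, although Stard9 shared only 200 bp. Syngr1, a synaptic vesicle protein, had 2.2 RPM. Dmpk, a kinase known from myotonic dystrophy, Gpank1 and Slit2, an axon guidance ligand, each had 1.7 RPM, and Il17rc and Zfr2 each had 1.6 RPM. At 7 of the 12 the gene also had a CpG-rich TSS.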

How the data were processed

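H3K4me3 and Cxxc1 were measured by ChIP-seq in DP thymocytes. Per the study's methods, 50-bp reads (CASAVA 1.8.2) that mapped uniquely to mm9 were passed to SICER 1.1, which calls broad enriched regions, with input and Cxxc1-deficient chromatin as controls. Which control served H3K4me3, how duplicates were handled and the aligner are not given in the sources used here, and each can change which regions are listed. The authors deposited 200-bp windows of the called regions as RPM at 1 decimal. Libraries of input and of Cxxc1 ChIP from Cxxc1-deficient cells were not analysed here.

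Windows were joined as described above, and peak strength is the sum of the deposited RPM. Tags per window were recovered from the value of 1 tag (0.106 RPM). TSSs (43969 distinct autosomal, 45.5% CpG-poor) came from protein-coding transcripts of GENCODE vM1, and bases from the same assembly, mm9. Overlap meant 1 bp. Shares carry Wilson intervals, medians order-statistic intervals and tag sums exact Poisson intervals (Python 3.11.15, numpy 2.4.6, pandas 2.3.3, scipy 1.17.1). The joining, overlap, CpG-rich stretch and Wilson interval steps were tested on simulated data. With 1 library per group, no tests were run.

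Groups came from the sample titles. The regions and gene lists were chosen with earlier results of these data known. Named are genes of the T lineage lists, the 10 strongest regions (with Cd151, tied at the same strength), up to 10 regions at Cxxc1 peaks by Cxxc1 strength (Il17rc and Zfr2 were added after their values were seen, and 1 region is not reported here), genes on other cell type lists, and examples of families. Genes of chromosome bins, of other WT peaks and of the marker check, and the unlisted muscle genes, were named after their values were seen. Sequences are of the strongest listed genes, at most 3 per list, except where the 150 bases overlapped an annotated exon or lay on chromosome 18.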

Additional observations from a re-analysis of the deposited data

How the results depend on the processing

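Of 59 values of 8 results under alternative settings, 43 stayed within 1.5 times the reported count or inside the reported value's 95% interval, and 16 did not. No paired analysis was possible because 1 library stands for each group, and no library could be left out for the same reason. When every TSS reached had to be CpG-poor, 58.8% of midpoints lay downstream and 19.5% of regions had a CpG-rich stretch within 5 kb. With the looser CpG-rich limits there were 380 regions, 50.3% of midpoints lay downstream, 25.5% had such a stretch by the main definition, and 14 T lineage genes were left. With no missing window allowed, 1920 pieces passed, with a median of 0.9 RPM and 400 bp, at 40 T lineage genes, and 0.885% of the pieces shared a base with a Cxxc1 peak. With promoters of 500 bp, 26.2% had a stretch within 5 kb. Regions at or above 2.3 RPM, the median of the whole WT list, numbered 350, with medians of 2.7 RPM and 2000 bp, 36.6% with a stretch within 5 kb, and 17 T lineage genes. TATAAA anywhere in the 300 bp on the sense strand was present in 6.41%. Counting a Cxxc1-deficient peak within 1 kb as shared left 786 regions and 26 T lineage genes. The share at a Cxxc1 peak ranged from 0.885% to 2.01% over all settings. A region near 2 RPM rests on about 20 tags, and without a second library per genotype a region absent from the Cxxc1-deficient list cannot be told apart from one that the calling missed.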
